A study of Mus musculus with 7 samples.

Results

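Cyclin B, the kinase CDK1 and the enzymes that switch CDK1 on and off were followed by their transcripts in mouse oocytes before and after meiotic maturation. The genes were taken by symbol. They were 3 cyclin B genes (Ccnb1, Ccnb2 and Ccnb3), Cdk1, 3 activating phosphatase genes (Cdc25a, Cdc25b and Cdc25c) and 3 inhibitory kinase genes (Wee1, Wee2 and Pkmyt1). All 10 were listed once in each of the 7 libraries, among 25908 entries in all. All 10 also passed the filter on low values, a mean of the 3 group means of at least 1 FPKM, so none was lost from the tests. FPKM counts sequenced fragments per kilobase of transcript, relative to the fragments mapped in the library, so it is a level per length and allows genes to be compared.

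Each library held 10 oocytes from 4-week-old, hormone-primed females of C57BL/6 background, with 100 pg of external (ERCC) RNA added at lysis. Germinal vesicle (GV) oocytes, which are arrested in prophase with an intact nucleus, gave 2 libraries. Metaphase II (MII) is the stage at which a mature oocyte awaits fertilization. Oocytes labelled MII gave 3 libraries after culture with the solvent DMSO and 2 after culture with BYBX. The paper reports that BYBX lowered polar body emission and that treated oocytes reaching MII had abnormal spindles. What part this had in the comparisons with BYBX was not tested. BYBX is a fluorescent ligand of RNA G-quadruplexes (rG4s), four-stranded folds of G-rich RNA. The labels give the GV and DMSO oocytes as controls, and name the tissue as ovary and the cell type as oocyte. They list no treatment for the GV libraries, although the collection protocol speaks of DMSO or BYBX. The paper's culture methods say that control oocytes at both stages received an equal concentration of DMSO. The labels and the library methods give no dose or culture time of BYBX and do not say whether the oocytes were chosen by polar body emission. The dose named for the ribosome profiling that was analysed together with these libraries was 1 μM. Nothing says that libraries of a group came from separate animals, so every p-value measures the spread between these samples, which may be technical.

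CDK1 bound to cyclin B is the kinase that drives the oocyte out of prophase arrest. WEE kinases and PKMYT1 hold the complex inactive by phosphorylating CDK1, and CDC25 phosphatases remove those phosphates. In the fully grown mouse oocyte, WEE2 (also called WEE1B) is known as the oocyte form that maintains arrest, CDC25B as the phosphatase required to leave it, and CDC25A as a further activator of meiotic resumption. Transcription is silent during maturation, so proteins such as cyclin B1 are made from stored maternal messages. Many stored messages carry a cytoplasmic polyadenylation element (CPE) in the 3′ UTR that lengthens the poly(A) tail. The libraries were primed with oligo-dT, so they recorded RNA with a poly(A) tail and not translation or protein.

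The sequence elements that bear on an rG4 ligand and on tail length are shown first. In the longest coding transcript of each gene (GENCODE vM21, GRCm38, the same assembly as mm10), rG4 motifs were searched on the transcript strand as 4 stretches of G, each 3 or longer, separated by 1 to 7 other bases. The motif was present in 3 of 10 genes, against 17.8% of 21810 genes with a coding transcript. The 3 motifs lie in the last exon of Cdk1, the last exon of Cdc25a and exon 1 of Pkmyt1, with the G runs in capitals:
Cdk1, 3′ UTR, exon 8, mm10 chr10:69336256-69336274, minus strand: GGGtGGGGtGGGGtGGGGG
Cdc25a, 3′ UTR, exon 15, mm10 chr9:109893231-109893259, plus strand: GGGtGGGcacccaaGGGtgagcaGGGGGG
Pkmyt1, 5′ UTR, exon 1, mm10 chr17:23726387-23726413, plus strand: GGGGGcGGGaccacGGGcgagcctGGG
When stretches of 2 G sufficed, all 10 genes held a motif, as did 91.3% of all genes. A match describes letters only, and no rG4 was measured in these libraries. In a separate assay of rG4s in oocytes, the paper reports that signal in the 3′ UTR of Ccnb1 rose with BYBX. It also reports less cyclin B1 protein with BYBX. Ccnb1 has no motif with stretches of 3 G in the transcript searched, so a gene without a match can still carry signal in that assay.

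CPEs were searched as TTTTAT or TTTTAAT, on the transcript strand. A CPE was found in the 3′ UTR of 6 of 10 genes, against 54.0% of all genes. Cdc25a held 6, Ccnb1 4, Cdk1 and Wee2 2 each, and Ccnb2 and Ccnb3 1 each, while none was found in Cdc25b, Cdc25c, Wee1 or Pkmyt1 within the annotated 3′ ends. Within the last 100 bases of the transcript a CPE was found only in Wee2 and Ccnb3, that is 2 of 10 genes against 17.8% of 19732 genes with a 3′ UTR that long. The sites nearest the 3′ end in the cyclin B genes and in Wee2, and the site beside the Cdk1 motif above, are given with 10 bases on each side and the CPE in capitals:
Ccnb1, exon 9, mm10 chr13:100778777-100778803, minus strand: tcatttgctgTTTTAATttatacatct
Ccnb2, exon 9, mm10 chr9:70407862-70407887, minus strand: cctgtatgtaTTTTATtctagtttac
Ccnb3, exon 14, mm10 chrX:6979704-6979729, minus strand: ttgaaattacTTTTATgaaagaagag
Wee2, exon 12, mm10 chr6:40466758-40466784, plus strand: ttttaacataTTTTAATccagatcatt
Wee2, exon 12, mm10 chr6:40466786-40466811, plus strand: taaataaagaTTTTATcttatccaaa
Cdk1, exon 8, mm10 chr10:69336265-69336290, minus strand: tgacaaagaaTTTTATgggtggggtg
The Wee2 sites end 39 and 12 bases before the transcript's end, on either side of a poly(A) signal (AATAAA) that ends 20 bases before it. The Ccnb3 site ends 62 bases before the end, the Ccnb1 site 137 and the Ccnb2 site 180. In Cdk1 the CPE ends at base 3246 of the transcript and the rG4 motif starts at base 3247, so the elements adjoin. Which transcript ends the oocytes used was not measured.

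Before the members' values, the libraries themselves need a description. The deposited values had been scaled by the authors to the added RNA, so their totals were not equal: 402113 and 489569 FPKM in GV, 109732 to 127254 in MII with DMSO, and 201482 and 246710 in MII with BYBX. With pooled oocytes, fewer recovered oocytes and less polyadenylated RNA per oocyte cannot be told apart. A list of 9 oocyte markers (such as Gdf9 and Zp3) summed to 8420 and 11000 FPKM in GV, 1520 to 1600 with DMSO, and 4290 and 4510 with BYBX, with none at 0. The 12 granulosa and cumulus cell markers summed to 6.77 and 14.1 FPKM in GV, 2.12 to 2.35 with DMSO, and 2.72 and 2.88 with BYBX, with 2 of the 12 at 0 in every library of a group, among them Ptx3. These sums moved with the groups as the members did, and their part in the results was not tested. Red cell markers summed to at most 1.2 FPKM and leukocyte markers to at most 1.72. Read depth is unknown, so no counting error can be attached to a value.

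Between groups the whole table moved. The median difference in log2(FPKM + 1) over the 9202 tested entries was -1.83 for MII with DMSO minus GV, 0.84 for MII with BYBX minus MII with DMSO and -0.99 for MII with BYBX minus GV. Each member is therefore given on the deposited scale, by its place among all tested differences, and after setting every library to the same total or the same median. At the same total those 3 medians were -0.56, 0.34 and -0.17. After centring they were 0.47, -0.44 and 0.04, so centred values are to be read against these medians and not against 0. Differences were tested with limma on log2(FPKM + 1) in 1 fit of the 3 groups. A gene was called at a Benjamini-Hochberg adjusted p below 0.05 over all tested entries. The comparisons share libraries, those with DMSO and those of GV entering 2 comparisons each, so their values are given side by side and are not independent of each other.

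On the deposited scale, MII oocytes with DMSO had lower levels than GV oocytes for 9 of 10 members, with Ccnb3 not called. Among all tested entries 88.3% were called lower and 0.272% higher, so the count of members is close to that of the whole table. With BYBX, 7 members were higher than with DMSO and none lower, where 65.2% of all entries were called higher and 0.0326% lower. Against GV, oocytes with BYBX had lower levels of 6 members and none higher, where 69.2% of all entries were called lower and 0.315% higher. The members' median differences were -2.06, 1.27 and -0.78, beside -1.83, 0.84 and -0.99 for all entries. What varied was the size of the change from gene to gene. With DMSO, Cdk1, Cdc25c and Wee1 were at 0.188 to 1.58% of their GV level and Ccnb3 at 94.4%. Places among all tested differences are percentiles, the share of entries with a lower difference. They follow in the order Ccnb1, Ccnb2, Ccnb3, Cdk1, Cdc25a, Cdc25b, Cdc25c, Wee1, Wee2 and Pkmyt1. For MII with DMSO minus GV they were 71, 67.5, 98, 20.9, 26, 36.1, 15.5, 13.8, 58.2 and 52. BYBX minus DMSO gave 20.4, 63.9, 1.5, 75.9, 72, 79.5, 80.9, 82.1, 45.9 and 57.8. BYBX minus GV gave 63.1, 92.4, 91, 17.1, 23.6, 69.9, 11.3, 8.3, 60.6 and 62.7.

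**Figure D1:**
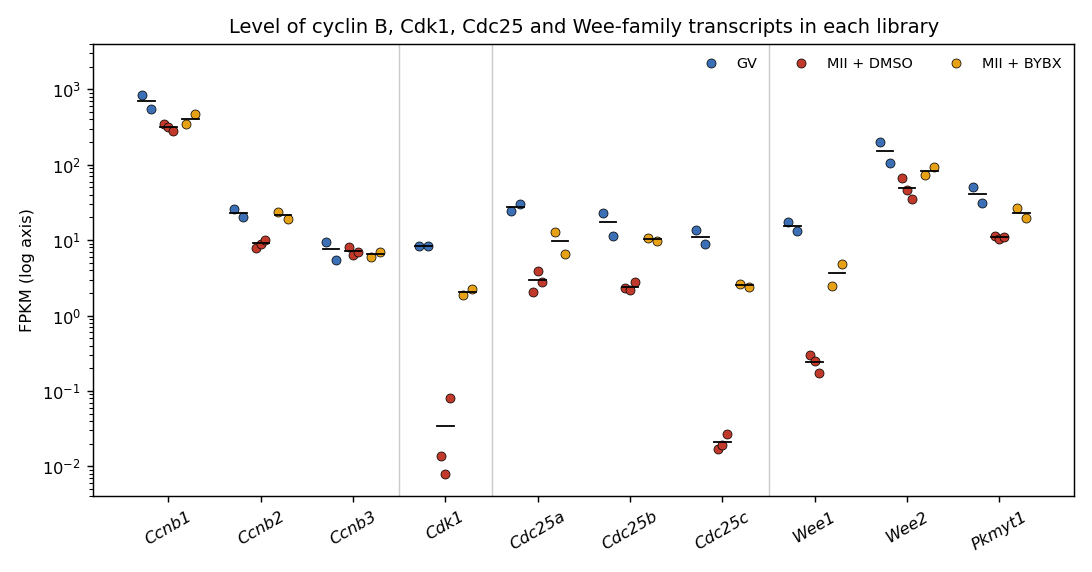
FPKM of each of the 10 genes (log axis) in every library of GV oocytes (blue, 2 libraries), MII oocytes with DMSO (red, 3) and MII oocytes with BYBX (yellow, 2), with a bar at the group mean. On this deposited scale Cdk1, Cdc25c and Wee1 lie at 0.00784 to 0.303 FPKM in the DMSO libraries and at 1.86 to 4.86 FPKM with BYBX, while Ccnb1 lies at 279 to 838 FPKM throughout.

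Ccnb1 encodes cyclin B1, the main partner of CDK1 in meiosis, and lies on mm10 chr13:100778650-100786570, minus strand. Its level was 838 and 553 FPKM in GV, 345, 315 and 279 FPKM in MII with DMSO, and 349 and 466 FPKM in MII with BYBX. No pair of groups overlapped, although the lowest BYBX library was only just above the highest DMSO library. Group means were 696 ± 201 (SD, n = 2), 313 ± 33.2 (n = 3) and 408 ± 83.1 (n = 2) FPKM, so that 45.0% of the GV level was present with DMSO and 58.6% with BYBX. The difference between DMSO and GV was -1.13 in log2(FPKM + 1) (SE 0.26, adjusted p = 0.0011) on the deposited scale but 0.76 at the same total (adjusted p = 0.019) and 1.18 after centring on the median. BYBX and DMSO were not told apart, with a difference of 0.37 (95% interval -0.19 to 0.93, adjusted p = 0.22), which turned to -0.52 at the same total and was called lower, at -0.91, after centring (adjusted p = 0.0067). BYBX minus GV was -0.75 (SE 0.28, adjusted p = 0.030) as deposited but 0.24 at the same total, and the call was lost without GV replicate 1 (adjusted p = 0.24), BYBX replicate 1 (adjusted p = 0.17) or DMSO replicate 2 (adjusted p = 0.050), with no filter on level (adjusted p = 0.088) and in a fit of those groups alone (adjusted p = 0.055).

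In every library Ccnb1 was the highest of the 10 genes, at percentile 99.4 to 99.7 of the entries above 0. Its share of the summed cyclin B FPKM was 95.6 and 95.9% in GV, 94.2 to 95.6% with DMSO, and 92.2 and 94.7% with BYBX. The mouse assembly holds 5 Ccnb1 pseudogenes that match its transcript at 94.4 to 99.2% over 383 to 1294 bases. None of them is listed under its own name in the tables, and only uniquely mapped reads had been kept, so reads from the matching stretches may have been lost or assigned to another copy. The level of Ccnb1 against other genes is uncertain for that reason.

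Ccnb2 encodes cyclin B2, which can partner CDK1 in place of cyclin B1 (mm10 chr9:70407692-70421547, minus strand). GV libraries held 26.1 and 20.0 FPKM, DMSO libraries 7.99, 8.99 and 10.2 FPKM, and BYBX libraries 23.5 and 19.0 FPKM. The DMSO libraries lay below all the others, and the BYBX libraries overlapped the GV libraries. Means were 23.1 ± 4.29, 9.05 ± 1.09 and 21.3 ± 3.17 FPKM, or 39.3% of GV with DMSO and 92.3% with BYBX. The log2 difference was -1.25 for DMSO minus GV (SE 0.25, adjusted p = 0.00031) on the deposited scale, and turned to 0.51 at the same total (adjusted p = 0.026) and 1.05 after centring. Between BYBX and DMSO it was 1.15 (SE 0.25, adjusted p = 0.0012) on the deposited scale. At the same total it was 0.32 (adjusted p = 0.16) and after centring -0.13, neither called. Between BYBX and GV it was -0.11 (95% interval -0.69 to 0.48, adjusted p = 0.74), against 0.83 at the same total (adjusted p = 0.027) and 0.92 after centring (adjusted p = 0.015).

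The percentile of Ccnb2 within its library, which uses no scaling, was 80.3 and 80.7 in GV, 86.1 to 87.3 with DMSO, and 87.6 and 88.2 with BYBX. It therefore stood higher in both kinds of MII library than in GV oocytes, among the entries above 0 in each. Those entries numbered 16405 and 16529 in GV, 13316 to 14253 with DMSO, and 14798 and 16019 with BYBX. Percentiles in different groups are therefore not ranks against the same set of entries.

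Ccnb3 encodes cyclin B3, known in mouse oocytes for its part in the exit from metaphase I (mm10 chrX:6979652-7041619, minus strand). It measured 9.55 and 5.51 FPKM in GV, 8.01, 6.43 and 6.88 FPKM with DMSO, and 6.01 and 6.97 FPKM with BYBX. All 3 groups overlapped. The log2 differences were -0.04 for DMSO minus GV (95% interval -0.59 to 0.52, adjusted p = 0.89), -0.11 for BYBX minus DMSO (-0.67 to 0.44, adjusted p = 0.70) and -0.15 for BYBX minus GV (-0.76 to 0.46, adjusted p = 0.65). None was called on the deposited scale, yet in a table that fell the DMSO minus GV value stood at percentile 98 of all tested differences. It was called higher at the same total, by 1.62 (adjusted p = 0.00022), and by 2.27 after centring. For BYBX minus DMSO the value stood at percentile 1.5 and was called lower at the same total, at -0.93 (adjusted p = 0.011), and at -1.39 after centring.

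Among the 10 genes Ccnb3 moved from rank 9 or 10 in GV oocytes to rank 4 or 5 with DMSO and rank 6 or 7 with BYBX. Its within-library percentile was 61.5 and 66.3 in GV, 82.4 to 86.8 with DMSO, and 69.1 and 75.4 with BYBX. The BYBX libraries lay between the other groups, without overlap.

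Cdk1 itself, the catalytic subunit (mm10 chr10:69335146-69352938, minus strand), was among the 2 lowest of the 10 transcripts in every library. Its level was 8.30 and 8.41 FPKM in GV, 0.0138, 0.00784 and 0.0819 FPKM with DMSO, and 1.86 and 2.28 FPKM with BYBX. The groups were well apart, with the BYBX libraries between the others. Means were 8.36 ± 0.083, 0.0345 ± 0.041 and 2.07 ± 0.30 FPKM, so 0.413% of the GV level was present with DMSO and 24.7% with BYBX. With the values near 0 in the DMSO libraries, a fold change on log2(FPKM + 1) understates the ratio of the means. With 0.1 FPKM added in place of 1, the differences were -6.02, 4.05 and -1.97 in the order of the next paragraph, all called.

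The log2 difference of Cdk1 was -3.18 for DMSO minus GV (SE 0.19, adjusted p = 2.1e-09), 1.57 for BYBX minus DMSO (SE 0.19, adjusted p = 7.6e-06) and -1.61 for BYBX minus GV (SE 0.20, adjusted p = 6.7e-05). The fall from GV was called under each scaling, at -2.39 at the same total and -0.87 after centring (adjusted p = 0.0014). So was the lower level with BYBX than in GV, at -0.78 (adjusted p = 0.037) and -0.59 (adjusted p = 0.048). The difference between BYBX and DMSO was 1.61 at the same total and was not called after centring, at 0.29 (adjusted p = 0.18). Centring came after 1 FPKM was added, so it shifts values near 0 by the whole library median and can understate the difference. In percentile terms Cdk1 stood at 64.0 and 67.8 in GV, 4.0 to 23.0 with DMSO, and 50.6 and 58.3 with BYBX.

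**Figure D2:**
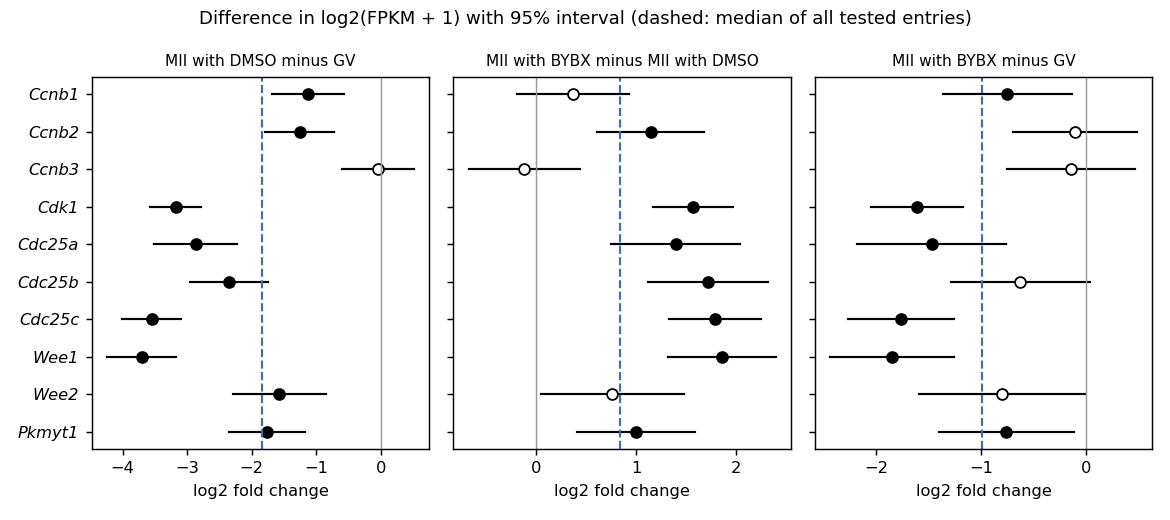
Difference in log2(FPKM + 1) of each gene with its 95% interval on the deposited scale, for MII with DMSO minus GV (left), MII with BYBX minus MII with DMSO (middle) and MII with BYBX minus GV (right). Filled points were called, the grey line is 0 and the dashed line is the median of all 9202 tested entries (-1.83, 0.84 and -0.99). Cdk1, Cdc25c and Wee1 lie beyond the median and Ccnb1, Ccnb2 and Ccnb3 on the near side of it in the left panel. At the same total Ccnb1, Ccnb2 and Ccnb3 turn to higher values there.

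On the deposited scale all 3 phosphatase genes were lower with DMSO than in GV, by different amounts. Cdc25a (mm10 chr9:109875579-109893895, plus strand) was at 24.2 and 30.4 FPKM in GV, 2.05, 3.96 and 2.81 FPKM with DMSO, and 12.7 and 6.55 FPKM with BYBX. No groups overlapped, and the BYBX libraries differed from each other by more than those of any other group did for this gene relative to their mean. The means were 27.3 ± 4.39, 2.94 ± 0.96 and 9.61 ± 4.32 FPKM. With DMSO 10.8% of the GV level was present, and with BYBX 35.2%. Log2 differences were -2.87 (SE 0.30, adjusted p = 6.3e-07) for DMSO minus GV, 1.40 (SE 0.30, adjusted p = 0.0011) for BYBX minus DMSO and -1.47 (SE 0.33, adjusted p = 0.0015) for BYBX minus GV. At the same total the first was -1.23 and called, and after centring it was -0.56 and not called. Neither comparison with BYBX kept its call under the other scalings. BYBX minus DMSO was 0.70 at the same total (adjusted p = 0.070) and 0.12 after centring (adjusted p = 0.74), and BYBX minus GV was -0.54 (adjusted p = 0.23) and -0.45 (adjusted p = 0.30).

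Cdc25b, the phosphatase needed for resumption of meiosis (mm10 chr2:131186949-131198497, plus strand), was at 23.2 and 11.5 FPKM in GV, 2.29, 2.17 and 2.79 FPKM with DMSO, and 10.6 and 9.89 FPKM with BYBX. The groups did not overlap, but the lower GV library was close to the BYBX libraries. Means of 17.3 ± 8.26, 2.42 ± 0.33 and 10.2 ± 0.47 FPKM gave 14.0% of GV with DMSO and 59.0% with BYBX. The log2 difference was -2.35 for DMSO minus GV (SE 0.28, adjusted p = 2.4e-06) and 1.72 for BYBX minus DMSO (SE 0.28, adjusted p = 0.00012). Both were also called at the same total, at -0.76 and 1.05, and not after centring. BYBX minus GV was -0.63 (95% interval -1.29 to 0.03, adjusted p = 0.081) and turned to 0.29 at the same total and 0.40 after centring. It also rested on 1 GV library, since it was -0.15 without GV replicate 1 (adjusted p = 0.63) and -1.11 and called without replicate 2 (adjusted p = 0.0066).

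Cdc25c, the phosphatase named for mitotic entry, was at 13.6 and 8.80 FPKM in GV, 0.0168, 0.0191 and 0.0272 FPKM with DMSO, and 2.66 and 2.41 FPKM with BYBX. The DMSO libraries were near 0 and the BYBX libraries lay between the groups, without overlap. Means were 11.2 ± 3.37, 0.0210 ± 0.0055 and 2.53 ± 0.18 FPKM, so 0.188% of GV was present with DMSO, the lowest share among the 10 genes, and 22.7% with BYBX. The log2 differences were -3.55 (SE 0.21, adjusted p = 2.6e-09), 1.79 (SE 0.21, adjusted p = 7.9e-06) and -1.76 (SE 0.23, adjusted p = 7.2e-05), in the order DMSO minus GV, BYBX minus DMSO and BYBX minus GV. Cdc25c was the only member called in the same direction in all 3 comparisons under all 3 scalings. With 0.1 FPKM added in place of 1, its differences were -6.51, 4.44 and -2.07. After centring on the median they were -1.25 (adjusted p = 8.1e-05), 0.51 (adjusted p = 0.020) and -0.73 (adjusted p = 0.019).

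Summed over the 3 genes, CDC25 transcripts reached 55.8 ± 7.24 FPKM in GV oocytes, 5.38 ± 0.92 FPKM in DMSO oocytes and 22.4 ± 4.97 FPKM in BYBX oocytes. Cdc25b made up 22.6 and 38.0% of that sum in GV, 35.3 to 52.6% with DMSO, and 40.8 and 52.5% with BYBX, and its share overlapped between DMSO and each of the other groups.

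The kinase genes split. Wee1, the WEE kinase of somatic cells (mm10 chr7:110122046-110143286, plus strand), was at 17.3 and 13.3 FPKM in GV, 0.303, 0.249 and 0.174 FPKM with DMSO, and 2.45 and 4.86 FPKM with BYBX. No groups overlapped, with the BYBX libraries in the middle. Means were 15.3 ± 2.83, 0.242 ± 0.065 and 3.65 ± 1.71 FPKM, or 1.58% of GV with DMSO and 23.9% with BYBX. Log2 differences were -3.70 (SE 0.25, adjusted p = 7.3e-09) for DMSO minus GV, 1.86 (SE 0.25, adjusted p = 2.3e-05) for BYBX minus DMSO and -1.85 (SE 0.27, adjusted p = 0.00011) for BYBX minus GV. The first stood at percentile 13.8 of all tested differences and was called under each scaling, at -2.64 at the same total and -1.40 after centring. The second was called at the same total, at 1.70, and not after centring, at 0.58 (adjusted p = 0.068). With the DMSO values near 0, centring can understate this difference too, as for Cdk1. BYBX minus GV was -0.94 and not called at the same total (adjusted p = 0.059), and -0.82 and called after centring (adjusted p = 0.050). With 0.1 FPKM added in place of 1, the differences were -5.50, 3.40 and -2.10, all called.

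Wee2, the oocyte kinase (mm10 chr6:40439088-40466813, plus strand), was the second most abundant of the 10 genes in all 7 libraries. It measured 198 and 105 FPKM in GV, 67.7, 46.1 and 35.3 FPKM with DMSO, and 73.1 and 92.6 FPKM with BYBX. The groups did not overlap, but the GV libraries differed widely and the highest DMSO library was close to the lowest BYBX library. With means of 152 ± 65.9, 49.7 ± 16.5 and 82.9 ± 13.8 FPKM, 32.8% of the GV level was present with DMSO and 54.7% with BYBX. DMSO minus GV was -1.57 on the log2 scale (SE 0.33, adjusted p = 0.00054) as deposited, but 0.30 at the same total and 0.74 after centring, neither called.

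The other comparisons of Wee2 missed the threshold. BYBX minus DMSO was 0.77 (95% interval 0.05 to 1.48, adjusted p = 0.057) as deposited and turned to -0.11 at the same total. BYBX minus GV was -0.80 (95% interval -1.59 to -0.02, adjusted p = 0.064) as deposited and turned to 0.18 at the same total. Leaving out DMSO replicate 1, the highest of its group, brought both past the threshold, with BYBX minus DMSO at 1.01 (adjusted p = 0.0074). BYBX minus GV ranged more widely with the GV library left out, from -0.35 without replicate 1 (adjusted p = 0.50) to -1.26 without replicate 2 (adjusted p = 0.027). With a filter at 5 FPKM both comparisons were called (adjusted p = 0.041 and 0.049). Within its library Wee2 stood between percentiles 95.6 and 98.3 in every group, with overlap between the groups.

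Pkmyt1 encodes the membrane-bound kinase of the same step (mm10 chr17:23726336-23736735, plus strand). Its level was 50.4 and 30.9 FPKM in GV, 11.2, 10.4 and 11.1 FPKM with DMSO, and 26.6 and 19.7 FPKM with BYBX. The 3 groups did not overlap. Means were 40.7 ± 13.8, 10.9 ± 0.44 and 23.1 ± 4.86 FPKM, so 26.9% of GV was present with DMSO and 56.9% with BYBX. The log2 differences as deposited were -1.76 (SE 0.27, adjusted p = 3e-05) for DMSO minus GV, 1.0 (SE 0.27, adjusted p = 0.0054) for BYBX minus DMSO and -0.76 (SE 0.30, adjusted p = 0.035) for BYBX minus GV. At the same total the first was 0.03 and not called, and the second was 0.16 and not called (adjusted p = 0.53). After centring the first was called higher, at 0.54 (adjusted p = 0.029), where the median of all entries was 0.47. The second turned to -0.28 after centring and lost its call without BYBX replicate 1 (adjusted p = 0.067). The third turned to 0.20 at the same total and lost its call without GV replicate 1 (adjusted p = 0.25) or BYBX replicate 2 (adjusted p = 0.21) and with no filter on level (adjusted p = 0.058). Pkmyt1 took rank 3 of the 10 genes in every library. Its transcript shares 238 identical bases with Paqr4, an overlapping gene listed at 16.8 and 10.0 FPKM in GV, 1.59 to 1.91 with DMSO, and 4.11 and 5.51 with BYBX, so reads there may have been divided between the genes.

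**Figure D3:**
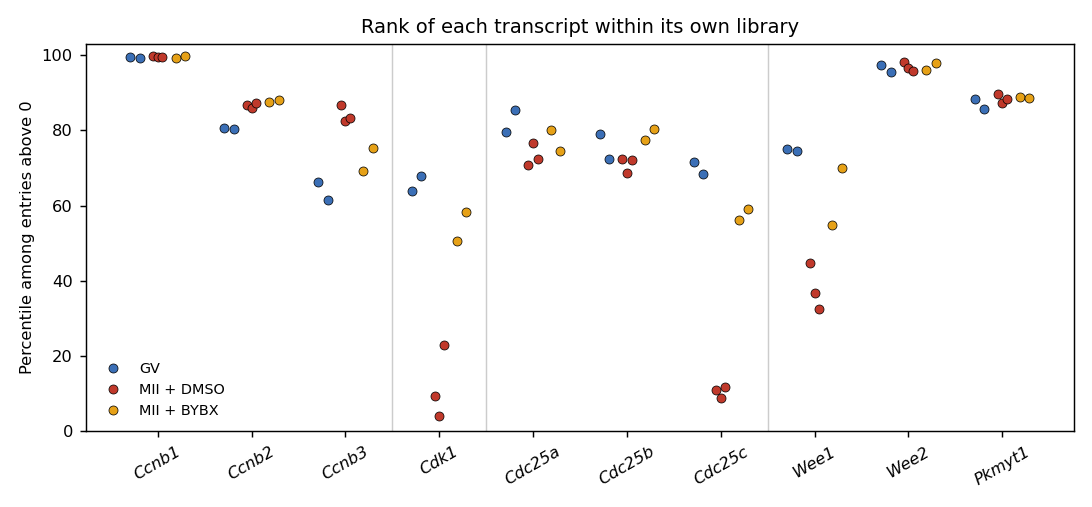
Percentile of each gene among the entries above 0 in its own library, a measure that no scaling of a library changes, with 1 point per library (GV blue, MII with DMSO red, MII with BYBX yellow). Cdk1 and Cdc25c lie at percentiles 4.0 to 23.0 with DMSO and 50.6 to 59.1 with BYBX. Wee2 lies at 95.6 to 98.3 and Ccnb1 at 99.4 to 99.7 in every library, and Ccnb3 stands highest with DMSO.

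Ratios within a library are also free of its scaling. The log2 ratio of the summed CDC25 genes to the summed Wee1, Wee2 and Pkmyt1 was -2.13 and -1.56 in GV, -4.18, -3.21 and -3.05 with DMSO, and -1.98 and -2.64 with BYBX. The DMSO libraries lay below the rest, and BYBX overlapped GV. The mean was -3.48 ± 0.61 with DMSO against -1.84 ± 0.40 in GV, a difference of -1.64 (exact permutation p = 0.1), and BYBX exceeded DMSO by 1.17 (exact permutation p = 0.1). BYBX and GV differed by -0.47 (exact permutation p = 0.667). These two-sided tests cannot go below 0.1 for 2 against 3 libraries or 0.333 for 2 against 2.

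The log2 ratio of summed cyclin B genes to Cdk1 was 6.72 and 6.11 in GV, 14.7, 15.4 and 11.8 with DMSO, and 7.67 and 7.76 with BYBX. No groups overlapped. The difference was 7.54 between DMSO and GV, -6.24 between BYBX and DMSO (exact permutation p = 0.1 for each, the smallest possible) and 1.30 between BYBX and GV (exact permutation p = 0.333, also the smallest possible). Because Cdk1 was near 0 with DMSO, adding 1 FPKM to each gene before summing reduced these to 2.07, -1.17 and 0.90, in the same directions.

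**Figure D4:**
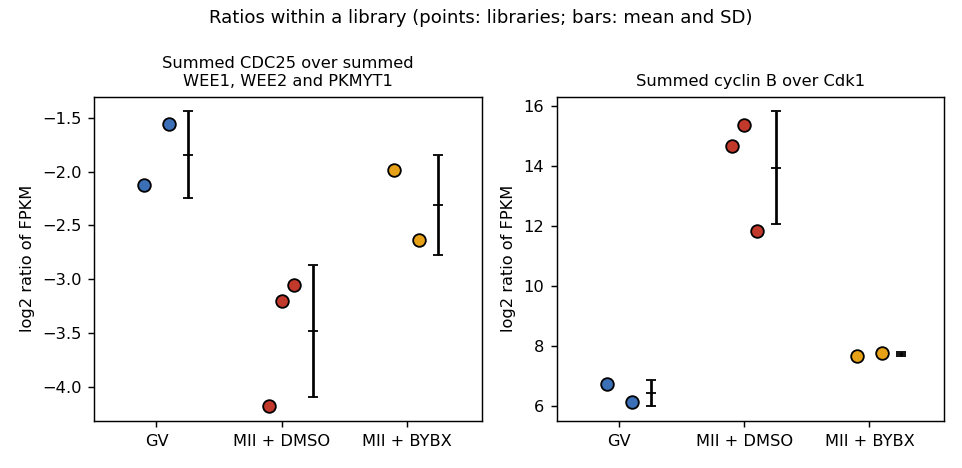
Log2 ratios of FPKM within each library, of summed CDC25 genes to summed Wee1, Wee2 and Pkmyt1 (left) and of summed cyclin B genes to Cdk1 (right). Points are libraries and bars are the mean with SD. The DMSO libraries lie at -4.18 to -3.05 on the left and at 11.8 to 15.4 on the right, apart from the GV and BYBX libraries in both panels.

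Wee2 made up most of the kinase sum, with 70.4 and 74.5% in GV, 75.7 to 85.4% with DMSO, and 71.6 and 79.1% with BYBX. The share was higher in every DMSO library than in either GV library (difference 8.34 percentage points, exact permutation p = 0.2), and BYBX overlapped both groups.

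Other genes of the pathway came from a list of 38, of which 31 passed the filter. In MII with DMSO 27 of them were lower than in GV, 4 were not called and the median log2 difference was -1.99. With BYBX 22 were higher than with DMSO and 9 were not called, with a median of 0.83. Against GV 22 were lower with BYBX and 9 were not called, with a median of -1.23. These counts are as deposited and lie near the shares of all entries given above.

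CKS proteins bind CDK complexes, and neither of their genes was called in any comparison on the deposited scale. Cks2 was at 28.9 and 28.6 FPKM in GV, 23.3, 37.9 and 35.3 with DMSO, and 38.4 and 43.1 with BYBX, with log2 differences of 0.13 (SE 0.27, adjusted p = 0.65), 0.36 (SE 0.27, adjusted p = 0.25) and 0.49 (SE 0.29, adjusted p = 0.15) in the same order of comparisons as above. Cks1b, named after its values were seen, differed by -0.13 between DMSO and GV (adjusted p = 0.65). Ccna2, which encodes cyclin A2, was lower by a small amount with DMSO than in GV, -0.70 (adjusted p = 0.023), and not called in the other comparisons. Cdk2, the related kinase, was at 17.6 and 11.3 FPKM in GV, 0.598 to 0.796 with DMSO, and 3.19 and 4.37 with BYBX. Its differences of -3.15 (adjusted p = 2.4e-08), 1.47 (adjusted p = 0.00012) and -1.67 (adjusted p = 0.00014) follow the order of comparisons above. The share of its mean GV level was 4.91% with DMSO and 26.1% with BYBX, beside 0.413 and 24.7% for Cdk1.

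MASTL (greatwall) protects CDK1 substrates by way of ENSA and ARPP19, which inhibit the phosphatase PP2A with its B55 subunits. All 10 tested genes of that arm were lower with DMSO than in GV, where 88.3% of all entries were, and 9 of 10 were higher with BYBX than with DMSO, where 65.2% of all entries were. Mastl differed by -2.07 (adjusted p = 3.2e-05), 0.83 (adjusted p = 0.036) and -1.24 (adjusted p = 0.0066). Ensa stood at 38.8 and 31.6 FPKM in GV, 0.526 to 1.2 with DMSO, and 17.0 and 12.2 with BYBX. Ppp2r2b, a B55 subunit, stood at 52.3 and 48.7 FPKM, 0.221 to 0.334, and 14.4 and 12.5, with differences of -5.32, 3.48 and -1.84, all called.

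The 14-3-3 proteins hold phosphorylated CDC25 in the cytoplasm. Ywhaq (14-3-3 theta) was at 299 and 224 FPKM in GV, 3.18 to 3.62 with DMSO, and 58.2 and 63.4 with BYBX, with a difference of -5.90 between DMSO and GV (adjusted p = 2.8e-10), the largest of the 31 genes. Ywhah (14-3-3 eta) differed by -4.77 (adjusted p = 6.4e-10). Prkaca, a catalytic subunit of the protein kinase A that maintains arrest, differed by -0.36 between DMSO and GV (adjusted p = 0.27) and by 0.10 between BYBX and GV (adjusted p = 0.80).

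The entries with a pattern most like 4 of the members were taken by Pearson's r on log2(FPKM + 1) over the 7 libraries, among 3790 entries of at least 10 FPKM. These 7 points share 3 groups and the scaling of each library, so high values are common. For Ccnb1 they were Esco2 (r = 0.994), Mest, Ghitm, Mfsd14a and Ddx5. For Cdk1 they were Ss18l2 (r = 0.9995), Sar1b, Gm4566, Rplp0 and Zfand6. For Cdc25b they included Jagn1 (r = 0.994), Fbxo34, Aaas and Mtmr14. For Wee2 they were Nupl1 (r = 0.999), Ect2, Ssr3, Tax1bp1 and Errfi1.

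Set beside the elements printed above, levels varied among genes with and without them. Cdk1, Cdc25a and Pkmyt1, the genes with an rG4 motif, had 0.413, 10.8 and 26.9% of their GV level with DMSO and 24.7, 35.2 and 56.9% with BYBX. Cdc25c and Wee1, which had no such motif, had 0.188 and 1.58% with DMSO and 22.7 and 23.9% with BYBX. Of the other genes without it, Ccnb1, Ccnb2 and Ccnb3 had 45.0, 39.3 and 94.4% with DMSO and 58.6, 92.3 and 86.2% with BYBX. Cdc25b and Wee2 had 14.0 and 32.8% with DMSO and 59.0 and 54.7% with BYBX. Cdk1 and Cdc25a, with 2 and 6 CPEs, fell from GV to DMSO by more than the median of the table (-1.83). Ccnb1, Ccnb2, Ccnb3 and Wee2, which also hold CPEs, fell by less than it or were not called. Of the genes without a CPE, Cdc25b (-2.35), Cdc25c (-3.55) and Wee1 (-3.70) fell by more than that median. Pkmyt1 (-1.76), also without one, fell by slightly less. With 10 genes no test was made of these features.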

How the data were processed

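The 7 libraries were made by the Smart-seq2 method from 10 oocytes each and sequenced as paired ends. Per the paper's methods and the submitters' processing notes, the authors trimmed reads (Trim Galore 0.6.7), aligned them to mm10 (HISAT2 2.2.1), kept uniquely mapped reads and computed the deposited FPKM values with Cufflinks 2.2.1. The authors scaled FPKM to the ERCC RNA and between batches to GV samples. The factors are not stated, no ERCC entry is listed, and depth per sample is therefore unknown. Of 25912 entries, 4 with a missing value were dropped. Groups came from the labels.

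Entries with a mean of the 3 group means of at least 1 FPKM (9202) were tested with limma 3.58.1 (R 4.3.3) on log2(FPKM + 1), with an intensity trend, 4 residual degrees of freedom and Benjamini-Hochberg adjustment at 0.05. Ratios within libraries were tested by exact permutation. The code was tested on simulated data. Alternatives were a pseudocount of 0.1, a filter at 5 FPKM or none, the same total or median in every library, fits of 2 groups, a replicate block, no trend, a minimum of 2-fold, and leaving out each library.

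Named genes were the 10 members. From a pathway list the 3 largest positive and 3 largest negative differences per comparison (fewer where fewer had that sign) and Ccna2, Cks2, Cdk2 and Mastl were named, as were the 5 entries most like Ccnb1, Cdk1, Cdc25b and Wee2, of which 1 is not reported here. Members and lists were chosen with earlier results of these data known. Sequences came from GRCm38 with GENCODE vM21.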

Additional observations from a re-analysis of the deposited data

How the results depend on the processing

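Differences between groups rest on 2 or 3 libraries each and on a scaling whose factors are unknown. With libraries set to the same total, members called higher and lower were 3 and 5 (MII with DMSO minus GV), 4 and 1 (MII with BYBX minus MII with DMSO) and 1 and 2 (MII with BYBX minus GV), and all entries 2141 and 4557, 3672 and 756, and 488 and 1222. Log2 differences turned for Ccnb1 (0.76), Ccnb2 (0.51), Ccnb3 (1.62), Wee2 (0.30) and Pkmyt1 (0.033) in the first, Ccnb1 (-0.52) and Wee2 (-0.11) in the second, and Ccnb1 (0.24), Ccnb2 (0.83), Ccnb3 (0.69), Cdc25b (0.29), Wee2 (0.18) and Pkmyt1 (0.20) in the third. With libraries centred on their median, members called were 4 and 3, 1 and 2, and 2 and 3, and all entries 4494 and 2456, 1696 and 4040, and 1397 and 1250. Values turned for Ccnb1 (1.18), Ccnb2 (1.05), Ccnb3 (2.27), Wee2 (0.74) and Pkmyt1 (0.54) in the first, Ccnb1 (-0.91), Ccnb2 (-0.13), Wee2 (-0.51) and Pkmyt1 (-0.28) in the second, and Ccnb1 (0.27), Ccnb2 (0.92), Ccnb3 (0.88), Cdc25b (0.40), Wee2 (0.22) and Pkmyt1 (0.26) in the third. Both scalings remove a library's own level by construction. The same total divides FPKM before 1 FPKM is added. Centring subtracts the median of log2(FPKM + 1) afterwards, so for values near 0 it does not act as a rescaling of FPKM.

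A filter at 5 FPKM tested 8 members and called 10 entries higher and 4842 lower in the first comparison, 3686 higher in the second, and 15 higher and 3779 lower in the third. No filter called 58 higher in the third, where members lower fell from 6 to 4 and entries lower from 69.2% to 45.1%. It took entries higher in the second from 65.2% to 31.3% with 7 members higher. A pseudocount of 0.1 kept the calls and direction of all 10 members and raised the size of differences at low levels, as for Cdc25c (-6.51 in the first). A minimum of 2-fold called 8 higher in the first, and 3875 higher and 1 lower in the second. In the third it called 18 entries higher and 49.2% lower, with 4 members lower. Same-numbered libraries of different groups had correlated deviations of 0.49 and 0.28 (GV with DMSO), -0.33 (GV with BYBX) and -0.60 and -0.35 (DMSO with BYBX) in differing directions. Nothing in the labels says what a number stands for, and the libraries were not treated as pairs. The replicate block called 14 entries higher in the first comparison. In the third it called 4 members and 64.8% of entries lower. With the BYBX numbers crossed, added after the data were seen, the block called 57 entries higher in the third. There 8 members and 72.7% of entries were called lower.

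Without 1 library at a time, entries called were 9 to 52 higher and 7248 to 8186 lower in the first comparison, 5095 to 6095 and 3 to 15 in the second, and 13 to 93 and 4747 to 6404 in the third. Members called were 9 lower, 6 to 8 higher and 4 to 8 lower. Where a group was left with 1 library, that library was assumed to vary like the other groups. Without GV replicate 1 the calls of Ccnb1 (adjusted p = 0.24) and Pkmyt1 (adjusted p = 0.25) were lost for MII with BYBX minus GV. Signs turned within these ranges: Ccnb3 from -0.39 (without GV replicate 2) to 0.31 (without GV replicate 1) in the first comparison, also 0.02 without DMSO replicate 2, and for MII with BYBX minus GV Ccnb2 from -0.29 to 0.076 and Ccnb3 from -0.50 to 0.20 over the same GV libraries, with Ccnb2 at 0.04 without BYBX replicate 2. Without BYBX replicates 2 and 1 the Wee2 share differed by -0.86 and 6.62 percentage points (BYBX minus GV) and the Cdc25b share by -5.06 and 6.616 (BYBX minus DMSO), the latter also by -4.48 without DMSO replicate 2. Adding 1 FPKM to each gene moved the CDC25 to kinase ratio to -1.12 (MII with DMSO minus GV) and the cyclin B to Cdk1 ratio to 2.07, -1.17 and 0.90. The cause of these changes was not tested.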
